A study of Mus musculus with 4 samples.

Results

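The elements described here are the distal STARR-seq elements of mouse Th17 cells that are centred on protein-coding sequence. An element belongs to them when its centre lies in a coding exon of a protein-coding transcript (GENCODE mouse release M21) and more than 1 kb from every protein-coding transcription start site (TSS). Of the 24217 elements that the authors' deposited table places on chromosomes of mouse build mm10, 14709 were distal in this sense, and 443 of those were centred on coding exons of 424 host genes. The rule used position alone and no measured value.

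The study measured the reporter activity of genomic fragments in 4 biological replicates of 1 group. Primary C57BL/6NJ T cells were driven to the Th17 state, the interleukin-17-producing branch of the helper T cells, and held the transiently transfected reporter library on an episome. Over 3 days, per the labels, they received anti-CD3e (0.25 µg/mL) and anti-CD28 (1 µg/mL), which mimic antigen contact, anti-interleukin-4 (2 µg/mL) and an antibody to interferon-gamma, which block the other helper fates, and interleukin-6. The starting quantity was 30 µg of nucleic acid and the size range was 200 to 400. All 4 samples received the same treatment, the labels call them biological replicates but give all of them the same donor, and another experiment that the labels name as a possible control was not analysed here.

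The table pools the 4 replicates and gives 1 log2 fold change and 1 q-value for each element. The depth of each replicate is therefore unknown, no spread between replicates can be given, and no RNA level of a cell type marker was measured, so the labelled cell type could not be checked. Only elements with a q-value under 0.01 are listed, which by the arithmetic of the q-values is 21.1% of the elements the authors tested. Every share below is thus a share of listed elements. The direction of the fold change is not stated in the sources used here and was taken as reporter RNA over input. An element with a positive value is called higher and one with a negative value lower, and the words would change places if the ratio were the reverse.

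In STARR-seq each fragment is cloned where the reporter itself is transcribed, so one that acts as an enhancer raises the amount of RNA that carries its own sequence. Coding exons are read as codons, but the same bases can also be bound by transcription factors, and exons with enhancer activity are known in several genes. A fragment cut from an exon can carry splice sites and lies within the reporter transcript itself. Exons of developmental regulators are often rich in GC and CpG, whereas enhancers of activated T cells often hold sites of AP-1, the Fos and Jun dimer that is induced by T cell receptor signals, and of IRF4 and BATF.

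The following sequences show the kinds of exon found at either end of the range. They are printed on the strand of the host gene, 5′ to 3′, from mm10. In the first 4, which are among the 8 highest elements, capitals mark coding bases and lower case marks the flanking bases outside the coding exon. They are short and show how much of a higher element is exon. The elements in 4930503B20Rik (225 bp) and Otog (250 bp), also among these 8, are short too and are not printed here. F9 (chrX:60019026-60019200, plus strand, internal coding exon 6 of 8) encodes coagulation factor IX, and Ccdc18 (chr5:108206626-108206825, plus strand, internal coding exon 23 of 28) encodes a coiled-coil protein. Sp110 (chr1:85584901-85585075, minus strand, internal coding exon 7 of 11) encodes an interferon-inducible nuclear body protein, and Mroh9 (chr1:163062376-163062600, minus strand, internal coding exon 8 of 21) encodes a protein with HEAT repeats.
F9: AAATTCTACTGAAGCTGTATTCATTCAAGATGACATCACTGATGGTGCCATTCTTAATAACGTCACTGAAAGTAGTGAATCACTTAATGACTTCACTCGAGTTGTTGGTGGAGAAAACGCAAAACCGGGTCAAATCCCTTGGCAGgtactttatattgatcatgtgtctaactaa
Ccdc18: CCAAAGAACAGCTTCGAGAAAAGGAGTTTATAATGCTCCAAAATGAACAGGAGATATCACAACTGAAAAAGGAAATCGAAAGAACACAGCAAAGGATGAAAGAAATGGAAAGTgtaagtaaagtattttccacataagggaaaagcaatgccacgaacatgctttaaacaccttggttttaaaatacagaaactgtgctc
Sp110: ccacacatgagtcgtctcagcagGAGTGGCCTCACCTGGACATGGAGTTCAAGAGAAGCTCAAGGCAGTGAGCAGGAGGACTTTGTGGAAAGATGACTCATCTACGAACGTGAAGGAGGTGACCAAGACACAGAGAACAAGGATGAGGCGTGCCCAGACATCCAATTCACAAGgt
Mroh9: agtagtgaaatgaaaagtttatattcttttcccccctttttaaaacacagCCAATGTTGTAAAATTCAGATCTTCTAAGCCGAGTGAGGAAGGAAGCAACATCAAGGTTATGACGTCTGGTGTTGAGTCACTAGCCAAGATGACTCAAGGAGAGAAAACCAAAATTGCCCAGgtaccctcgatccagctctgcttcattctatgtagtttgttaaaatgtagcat

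For contrast, the lower element in Foxo6 (chr4:120268276-120268525, minus strand), a forkhead transcription factor gene, is coding throughout and had the highest GC content of all 443 elements, 81.2%. Capitals mark its CpG dinucleotides, which take up 82 of its 250 bases.
Foxo6: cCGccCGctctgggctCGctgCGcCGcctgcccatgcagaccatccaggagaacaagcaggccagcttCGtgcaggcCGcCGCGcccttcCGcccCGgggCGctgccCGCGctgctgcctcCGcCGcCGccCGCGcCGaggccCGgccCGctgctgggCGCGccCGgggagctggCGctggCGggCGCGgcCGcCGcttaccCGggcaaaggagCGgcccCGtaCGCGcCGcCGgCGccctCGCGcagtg

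Windows of 121 bases around motif matches show the elements with the smallest p-values among those that hold an AP-1 or a CTCF match. Capitals mark the match. Both elements with an AP-1 match were higher and both with a CTCF match were lower. Bend6 (window chr1:33883726-33883846, minus strand) encodes a BEN domain protein and Cenpf (window chr1:189657593-189657713, minus strand) the centromere protein F of dividing cells. Gpr153 (window chr4:152283325-152283445, plus strand) encodes an orphan G protein-coupled receptor and Rasip1 (window chr7:45628905-45629025, plus strand) a Ras-interacting protein of endothelial cells.
Bend6: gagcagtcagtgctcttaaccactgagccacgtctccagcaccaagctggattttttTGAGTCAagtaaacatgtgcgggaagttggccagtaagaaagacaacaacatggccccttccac
Cenpf: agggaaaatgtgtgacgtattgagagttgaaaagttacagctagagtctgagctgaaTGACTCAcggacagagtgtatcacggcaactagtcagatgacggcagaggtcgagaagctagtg
Gpr153: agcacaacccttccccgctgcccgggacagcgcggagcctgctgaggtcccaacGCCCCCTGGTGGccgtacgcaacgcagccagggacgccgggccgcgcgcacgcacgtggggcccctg
Rasip1: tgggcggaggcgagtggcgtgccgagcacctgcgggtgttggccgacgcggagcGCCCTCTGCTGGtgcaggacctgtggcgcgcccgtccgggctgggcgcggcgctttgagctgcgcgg

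Most distal elements centred on coding exons were lower. Of the 443 elements, 106 were higher and 337 lower, a share of 23.9% higher (exact Clopper-Pearson 95% interval 20.03 to 28.2%; this and all intervals below cover counting error only). Among all listed elements on chromosomes 49.4% were higher, and among the other 14266 distal elements 74.3% were higher (73.5 to 74.98%). Beyond 5 kb from every coding TSS 37.9% of 232 coding-exon elements were higher. Elements centred on distal introns had 73.4% higher. The median log2 fold change of the authors' deposited table was -1.28 for the coding-exon elements and 1.18 for the other distal elements.

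Among listed elements the size of the change, in contrast to its direction, was much alike in both sets. Listing required a q-value under 0.01, which tends to leave out small changes in either set. The likeness in size therefore holds for listed elements only. The median log2 fold change was 1.38 for the higher coding-exon elements, against 1.49 for other higher distal elements, and values ranged from 0.42 to 4.50. The lower coding-exon elements had a median of -1.46, against -1.32, and ranged from -8.37 to -0.56. No listed coding-exon element lay between -0.56 and 0.42, a range of small changes that the limit on the q-value tends to leave out. No p-value was computed across elements, because neighbouring elements are not independent and elements are not replicates of a culture.

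The limit of 1 kb was not a step in these values. Of the 63 elements in the first 500 bp past the limit, just inside the rule, 4.76% were higher. Of the 150 coding-exon elements in the last 500 bp before it, just outside the rule, 4.00% were higher. The share was higher in bins further from the start site, with 4 of 90 elements higher in the bin that ends at 2 kb, 14 of 121 in the bin that ends at 5 kb, 50 of 149 in the bin that ends at 20 kb and 37 of 80 in the bin that ends at 100 kb. Of the 3 elements beyond, 1 was higher. From the nearest bin to the one that ends at 100 kb, the median GC of the coding-exon elements was 65.9, 66.7, 60.6 and 50.6%. In the same bins 53.7, 68.0, 69.6 and 76.8% of other distal elements were higher. The part of GC in this order was not tested.

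The higher and lower coding-exon elements were different kinds of sequence. The higher ones had a median GC content of 47.9%, ranging from 36 to 64%, and the lower ones a median of 65.7%, ranging from 36.3 to 81.2%. The ratio of observed to expected CpG, a measure of how far CpG has been depleted, had a median of 0.286 in the higher and 0.736 in the lower elements. Higher elements were also shorter (median 425 against 625 bp) and lay further from the nearest coding TSS (median 13404 against 4053 bp). The 2 ranges of GC overlap, but the middle parts do not: 3 in 4 of the lower elements had a GC content above 61.2%, and 3 in 4 of the higher ones lay below 52.7%.

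**Figure D1:**
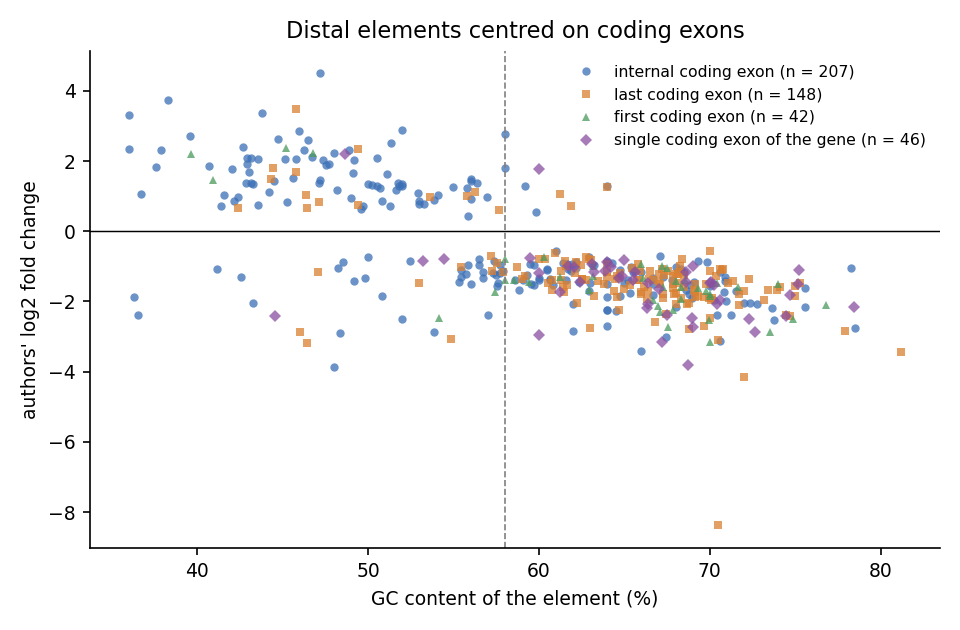
Each point is 1 of the 443 distal elements centred on coding exons, with its GC content (%) on the horizontal axis and the log2 fold change of the authors' deposited table on the vertical axis; colour and shape give the position of the coding exon in its gene, and the dashed line marks a GC content of 58%. To the right of the line 9 of 296 elements lie above 0, and to the left 97 of 147 do.

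Nearly all higher coding-exon elements lay in the AT-richer part of the set. At a GC content under 58%, 97 of 147 were higher (66.0%, 57.7 to 73.6%), and at 58% or more 9 of 296 were (3.04%, 1.40 to 5.69%). The limit of 58% is near the lower bound of the top GC decile of all distal elements and was chosen after the values were seen. At 65% GC or more all 178 elements were lower, and the exact upper bound for a count of 0 in 178 is 2.05% higher.

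Distal elements outside coding exons followed the same order along GC but kept more higher elements at its upper end. At 58% GC or more, 261 of the other 1211 distal elements were higher (21.6%, 19.3 to 24.0%), a share that was 23.5% in intergenic sequence, 19.1% in introns and 17.1% in untranslated regions. The interval of the coding-exon elements in that GC band, 1.40 to 5.69%, does not reach any of these shares. Within the band the median GC was 66.7% in the coding-exon elements and 62.1% in the other distal elements. Of promoter-proximal elements in the band, within 1 kb of a TSS, 6.24% were higher, and of those centred on coding exons 5.54%. At a GC content under 58% the difference was smaller, with 66.0% higher in coding exons against 79.1% (78.4 to 79.8%) in the other distal elements.

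Bins of 5 percentage points show where the sets part. Under 45% GC 32 of 38 coding-exon elements were higher (84.2%) against 88.8% of other distal elements. From 50 to 55% GC the shares were 69.7 and 67.0%. From 55 to 60% they were 25.5 and 41.1%, from 60 to 65% they were 5.10 and 22.4%, from 65 to 70% they were 0 of 107 and 10.9%, and at 70% or more 0 of 71 and 5.34%. Up to 55% GC the intervals of the coding-exon shares include the shares of other distal elements, and in the 4 bins from 55% upwards they do not. The intervals of both sets still overlap in 2 of these 4 bins. From 55 to 60% GC they were 14.7 to 39.0% and 38.2 to 44.1%, and at 70% or more 0 to 5.06% and 2.18 to 10.7%.

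**Figure D2:**
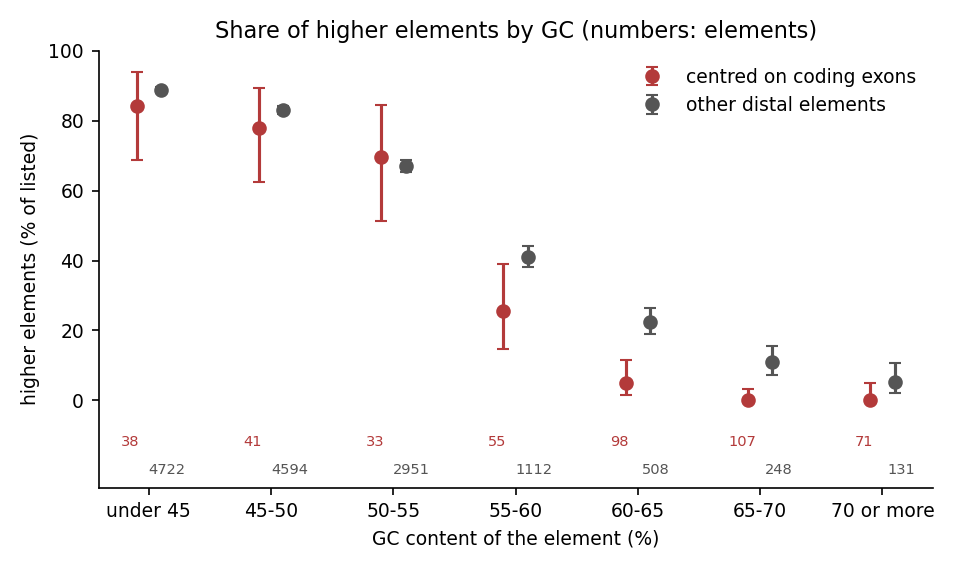
The share of listed elements that were higher (vertical axis, %) is plotted by GC content (horizontal axis, %) for distal elements centred on coding exons and for other distal elements; bars are exact 95% intervals and the numbers under each point are the elements in it. The red points fall from 84.2% under 45% GC to 0 at 65% or more, and the grey points from 88.8 to 5.34%.

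When the other distal elements were weighted to the GC deciles of the coding-exon elements, 38.2% of them were expected to be higher. This left a gap of -14.3 percentage points (-18.2 to -10.1). That interval covers the counting error of the coding-exon share alone, with the weighted share taken as fixed. The top decile held 292 of the coding-exon elements, with a median GC of 66.7% against 62.3% in the other distal elements, so the weighting left a difference in GC there. The gap was -9.09 points with GC bins of 2 percentage points, a setting added after the values were seen. With those narrow bins the gap was -10.8 points at 58% GC or more and -5.61 points below it. Against elements in introns alone these 2 gaps were -7.80 and -4.20 points. Weighted to length deciles in place of GC the gap was -47.0 points, and weighted to deciles of the CpG ratio it was -27.5 points.

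CpG-rich sequence was common in the set. By the usual definition of a CpG island applied to each element (GC of at least 50%, CpG ratio of at least 0.6, length of at least 200 bp), 223 of the 443 coding-exon elements were island-like (50.3%), against 4.84% of the other distal elements. Of the island-like coding-exon elements 6 were higher (2.69%), against 21.7% of the 691 island-like elements elsewhere in distal sequence. Of the 220 that were not island-like 100 were higher (45.5%), against 76.9% elsewhere.

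At high GC the share of higher elements was lower where more of the element was coding, and at low GC there was no such order. For this count all 14709 distal elements were used, wherever their centre lay, so that an element may touch an exon without being centred on it. At 58% GC or more, the share of higher elements was 22.6% of 1116 without a coding base, 10.2% of 49 with under 25% coding bases, 8.99% of 89 with 25 to under 50%, 2.38% of 168 with 50 to under 100%, and 1.18% of 85 that were coding throughout. The median GC content in these classes was 62.0, 61.6, 62.8, 66.2 and 68.3%, so it was also higher in the last 2, and the part of GC in this order was not tested. At a GC content under 58% the shares were 79.3, 73.3, 69.0, 73.2 and 72.0%, and the intervals of the last 2 classes include the first share while those of the middle ones do not.

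**Figure D3:**
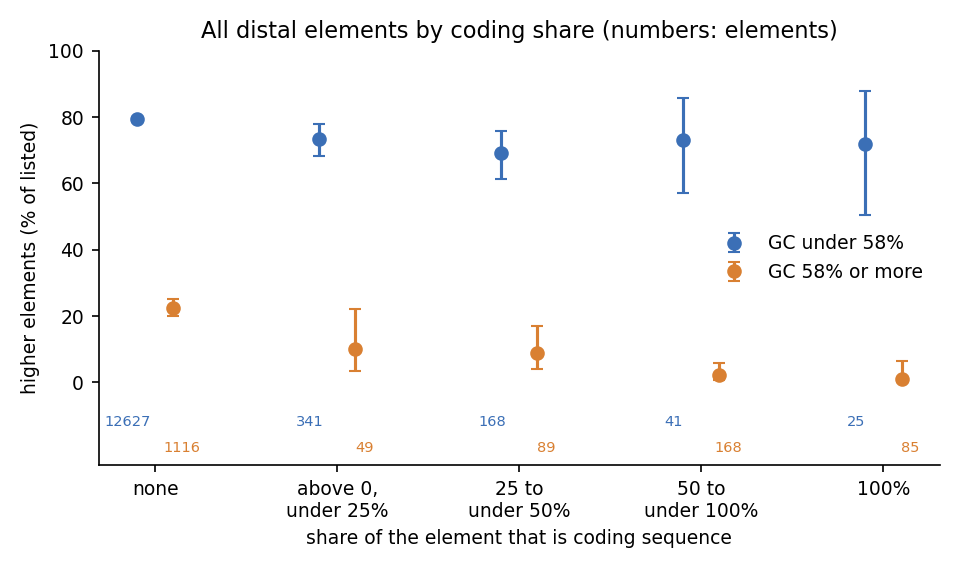
The share of listed distal elements that were higher (vertical axis, %) is plotted by the part of the element that is coding sequence (horizontal axis), separately for a GC content under 58% and of 58% or more; bars are exact 95% intervals and numbers under the points are elements. At the higher GC the share falls from 22.6 to 1.18% along the axis, and at the lower GC it stays between 69.0 and 79.3%.

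Elements coding from end to end were among the higher ones too. Of 110 such coding-exon elements 19 were higher, and 18 of those 19 had a GC content under 58%. The element in Cenpf whose AP-1 window is printed above lies wholly inside an exon of 3428 bp (chr1:189657401-189657900), with a log2 fold change of 2.06 (q = 2.39e-14) in the authors' deposited table. Crybg1, a gene of the beta and gamma crystallin family, had 2 such elements in the same exon of 2296 bp, at 0.72 and 0.91. Lyst, the lysosomal trafficking regulator, had 1 in each of 2 neighbouring exons, at 2.05 and 0.84.

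Elements in internal coding exons were higher more often than those in other exons, and more of them were AT-rich. Of 207 elements in internal coding exons 83 were higher (40.1%), of 148 in last coding exons 17 (11.5%), of 42 in first coding exons 4 (9.52%), and of 46 in genes with a single coding exon 2 (4.35%). At a GC content under 58% the counts were 78 of 113 internal, 14 of 24 last, 4 of 6 first and 1 of 4 single, and the intervals of all 4 overlap. At 58% GC or more they were 5 of 94, 3 of 124, 0 of 36 and 1 of 42. A count of 0 in 36 carries an exact upper bound of 9.74%.

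Exon length showed a dip in the middle of the range. Of elements in coding exons under 150 bp 46 of 100 were higher, at 150 to under 300 bp 36 of 98, at 300 to under 1000 bp 5 of 148 (3.38%, 1.11 to 7.71%), and at 1000 bp or more 19 of 97. The exons of 300 to under 1000 bp were the GC-rich ones, with 138 of 148 elements at 58% GC or more. Under 58% GC the shares from the shortest to the longest exons were 62.5% of 72, 71.4% of 42, 40.0% of 10 (12.2 to 73.8%) and 78.3% of 23, so the third class was lowest there too, with an interval that overlaps the others.

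The share of higher elements was largest where the element spans 2 exon boundaries. With 2 boundaries 52 of 111 were higher (46.8%), with 1 boundary 23 of 126, with none 23 of 155, and with 3 or more 8 of 51. At a GC content under 58% the shares were 70.4, 73.1 and 67.7% for 2, 1 and no boundaries. Of 19 elements with 3 or more boundaries 7 were higher (36.8%, 16.3 to 61.6%). The median GC of these classes, in the same order, was 49.1, 49.4, 47.1 and 55.4%, and its part was not tested. Host genes on the plus strand had 56 of 230 higher elements and those on the minus strand 50 of 213, shares of 24.3 and 23.5%. A TSS of any biotype, including retained introns and noncoding transcripts, lay within 1 kb of 103 elements, of which 17 were higher, against 89 of the 340 others.

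Among the searched motifs with at least 10 holders, AP-1 had the largest difference in the share of higher elements between holders and others. The motif was TGAGTCA or its reverse complement TGACTCA, on both strands. Of the 70 elements with a match 55 were higher (78.6%, 67.1 to 87.5%), against 51 of the 373 without (13.7%, 10.4 to 17.6%). At a GC content under 58% it was 51 of 53 (96.2%, 87.0 to 99.5%) against 46 of 94 (48.9%, 38.5 to 59.5%), with a median GC of 47.7 and 50.1%. At 58% GC or more 4 of 17 elements with a match were higher, against 5 of 279 without. Weighted over GC terciles the difference between holders and others was 21.6 percentage points, against 64.9 unweighted. A match is one of letters, and binding was not measured.

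The same motif was set against direction outside coding exons. In other distal elements under 58% GC, 89.2% of 5246 with a match and 72.4% of 7809 without one were higher. Whether this differs from the split in coding exons was not tested. The share of coding-exon elements that hold an AP-1 match, 15.8%, was below that of other distal elements, which was 38.1% after weighting to the same lengths. Under 58% GC the shares were nearer to each other, 36.1% (53 of 147) and 40.2% (5246 of 13055), and at 58% or more they were 5.74 and 12.1%, in both cases not weighted to length. Under 58% GC the 2 coding-exon elements with a match that were lower lay in Npat, a regulator of histone genes (-2.05), and in Gtf2i, a general transcription factor (-1.40).

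The AP-1 letters lay within the coding bases themselves in many of these elements. The 70 elements hold 76 matches, of which 37 are coding in all 7 letters, while 49.3% of the bases of these elements are coding. Of the 33 elements with a coding match 29 were higher, and of the 37 whose matches lie outside coding bases or across an exon edge 26 were. In the printed Cenpf window all bases are coding. In Bend6, whose element of 650 bp is 18.5% coding, the element value was 2.24 (q = 3.41e-15).

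IRF matches, GAAA and GAAA with any 2 bases between, had the next largest difference among them. Of 34 elements with a match 24 were higher (70.6%), and at a GC content under 58% it was 24 of 27 (88.9%) against 73 of 120 without (60.8%). The median GC of these 27 was 45.2%, against 50.6% for those without. The 7 elements with a match at 58% GC or more were all lower. Nat10, which encodes an RNA acetyltransferase, had the smallest p-value after Bend6 among IRF holders, with 2.33 (q = 1.67e-14). Under 58% GC all 8 elements with both AP-1 and IRF matches were higher, and so were 16 of the 19 with an IRF but no AP-1 match.

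The sites of NF-kB and STAT, the factors downstream of costimulation and of the interleukin-6 receptor, were also searched. NF-kB matches were in 48 elements, of which 13 were higher (27.1%) against 93 of the 395 without (23.5%), and under 58% GC in 13, of which 11 were higher (84.6%) against 86 of 134 without (64.2%). STAT matches (TTCNNNGAA) were in 49 elements, of which 25 were higher (51.0%, 36.3 to 65.6%) against 81 of the 394 without (20.6%, 16.7 to 24.9%), and under 58% GC 25 of 36 were higher (69.4%) against 72 of 111 (64.9%). Under 58% GC the intervals with and without a match overlap for both motifs, whereas over all elements those of STAT do not. The NF-kB holders with the smallest p-values lay in Tgm3, an epidermal transglutaminase gene (1.28, q = 1.26e-09), and in Gm1123 (2.09, q = 2.57e-09), and the STAT holders in Ifi211 and Bend6. Under 58% GC, 15 of 49 elements with none of the 4 motifs AP-1, IRF, NF-kB and STAT were higher (30.6%, 18.3 to 45.4%), 55 of 69 with 1 of them (79.7%, 68.3 to 88.4%) and 27 of 29 with 2 or more (93.1%, 77.2 to 99.2%). The median GC of these classes was 53.0, 49.4 and 45.8%, so GC moved along with the number of motifs, and its part in this order was not tested.

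**Figure D4:**
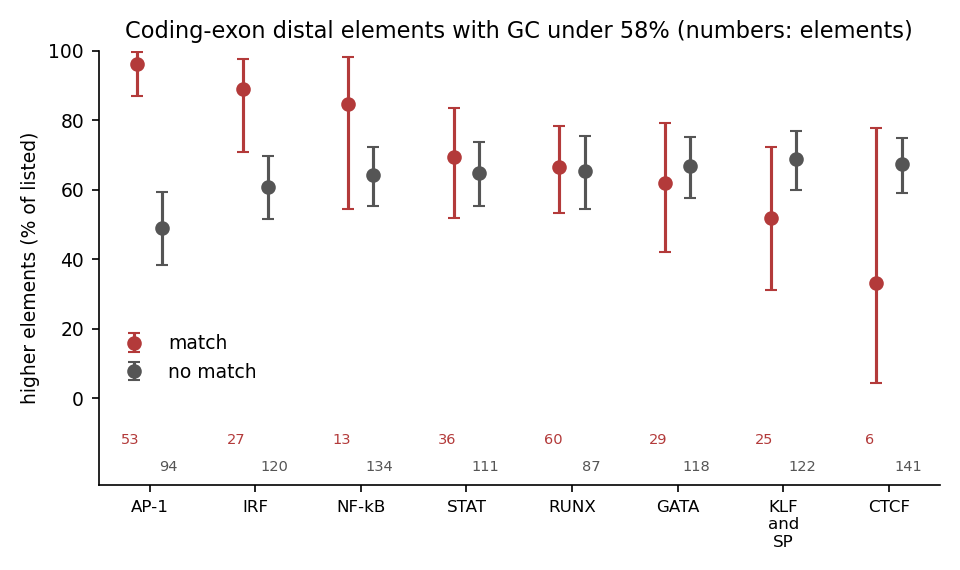
For coding-exon distal elements with a GC content under 58%, the share that was higher (vertical axis, %) is plotted for elements with and without a match to each of 8 motifs (horizontal axis); bars are exact 95% intervals and numbers are elements. The bars of AP-1 (96.2 against 48.9%) and IRF (88.9 against 60.8%) do not overlap between match and no match, and those of the other 6 motifs do.

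Matches to the motif of CTCF, the insulator and loop anchor protein, lay mostly in lower elements. Of 26 elements with a match 2 were higher (7.69%, 0.946 to 25.1%), against 104 of 417 without (24.9%, 20.9 to 29.4%), and these intervals overlap. The same order held outside coding exons, where 24.5% of 392 other distal elements with a match and 75.7% of 13874 without one were higher. The share of coding-exon elements with a match, 5.87%, was above that of other distal elements of the same lengths, 2.90%. These shares were not weighted to GC, whose median was 62.9% in the coding-exon elements and 47.4% in the others. All 20 holders at 58% GC or more were lower, where 267 of 276 elements without a match were lower as well. Under 58% GC 2 of 6 holders were higher. Beyond 5 kb from every coding TSS the difference between holders and others was -29.2 percentage points, against -17.2 in all. The former rested on 10 holders, with an interval of -41.0 to 5.91. The element in Rasip1 had a value of -2.05 (q = 1.64e-07) and that in Gpr153 -1.86 (q = 6.03e-08), and 12 of the 26 matches are coding in every base.

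GC-rich motifs were common in these elements. KLF and SP matches (GGGCGG) were in 48.5% of the elements, against 19.6% of other distal elements of the same lengths, and 19 of those 215 were higher (8.84%). At 58% GC or more 6 of 190 holders and 3 of 106 others were higher. EGR matches (GCGTGGGCG) were in 3.16% of the elements against 0.509%, and all 14 holders were lower, 12 of them at 58% GC or more. In 3 of these 14 a KLF and SP match overlaps the EGR match. The E-box CACGTG, a site of MYC and related factors, was in 16.9% against 9.08%, with 4 of 75 holders higher, and the E-box CAGCTG was in 39.5% against 29.7%, with 25 of 175 higher.

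The other motifs were rare, or their holders and non-holders had overlapping intervals under 58% GC. RUNX (TGTGGT), a motif of T cell factors, was in 29.3% against 42.2%. Of the 130 holders 33.1% were higher (25.08 to 41.9%) against 20.1% of the others (15.8 to 25.004%), and under 58% GC 40 of 60 holders and 57 of 87 others were higher. The motif of GATA factors, spelled AGATAA, was in 9.48% against 20.3%, with 18 of 42 holders higher (42.9%, 27.7 to 59.0%) against 88 of the 401 others (21.9%, 17.99 to 26.3%). Under 58% GC 18 of 29 GATA holders and 79 of 118 others were higher. NFAT (TGGAAAA) was in 7.45% against 13.1%, with 12 of 33 holders higher against 94 of 410 others. The polyadenylation signal AATAAA was in 9.03% against 29.3%, and under 58% GC 14 of 26 holders were higher against 83 of 121 others. ETS (CCGGAAGT) had 3 holders, of which 1 was higher, the T-box motif AGGTGTGA had 5, all lower, NRF1 had 4, all lower, and the partial REST motif TTCAGCACC had 2, of which 1 was higher. The only holder of a CREB and ATF match (TGACGTCA) was the element in Crybg1 at 0.72, and YY1 had none.

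The 8 highest elements at a single place in the genome were compact and, with 1 exception, AT-richer than 58% GC. Their GC content ranged from 36 to 58% and their length from 175 to 675 bp. F9 had the largest value in the authors' deposited table, 3.73 (q = 2.00e-06), a 13.2-fold change of reporter RNA over input. It was followed by 4930503B20Rik at 3.47 (q = 9.37e-07), Sbno1 at 3.38 (q = 9.44e-16) and Ccdc18 at 3.30 (q = 6.04e-08). Sbno1 encodes a homologue of the fly protein strawberry notch, and F9 is a gene of the liver. Then came Sp110 at 2.89, Svep1 at 2.85, Otog at 2.78 and Mroh9 at 2.71. Svep1 encodes a large extracellular matrix protein and Otog the otogelin of the inner ear.

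Motif matches covered some of these 8 elements and not others. AP-1 matches were found in 3 of them, Sp110, Svep1 and Mroh9, the last with 2 matches. Of all 147 coding-exon elements under 58% GC 36.1% held such a match, so 3 of 8 is near that share. Ccdc18 and Svep1 held 2 IRF matches each, and 4930503B20Rik held an NF-kB and a STAT match. F9, Sbno1 and Otog held none of the 4 motifs. A value above all of these, 4.50 (q = 1.48e-15), belonged to the element in Ifi211, an interferon-inducible gene of a family of near copies. That element has 1 other near-identical copy in the genome, so its reads may come from more than 1 locus.

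The 8 lowest elements at a single place had GC contents of 46.4 to 81.2%, and 6 of the 8 were at 58% or more. The lowest value, -8.37 (q = 5.70e-06), was in the last coding exon of Sobp (chr10:43021001-43022050), the gene of a sine oculis-binding protein, in an element of 1050 bp with 70.5% GC. Evx2, a homeobox gene at the end of the Hoxd cluster, had -4.14 (q = 4.61e-06), Grrp1 had -3.82 and Foxo6 -3.44. Nhlh2, a basic helix-loop-helix gene of neurons, had -3.16, and Skor2, a corepressor gene of neurons, had -3.16 in an element of 50 bp. The 2 AT-richer elements were in Gbf1, an exchange factor of the Golgi, at -3.86 and only 75 bp long, and in Tmem144 at -3.20. None of the 8 held an AP-1 match. A value in the same range, -3.41, was in Lmx1a, a LIM homeobox gene, in an element of 50 bp that could not be placed by alignment.

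Genes of T cell function were among the hosts in small numbers, as were genes at large. Of 21829 protein-coding genes on chromosomes 1.94% hosted at least 1 such element, and of the 128 genes of 4 T cell lists 3 did (2.34%). Of 27 Th17 genes 1 had such an element, Il6ra, which encodes the receptor that binds the interleukin-6 given to the cells, at -1.02 (q = 0.000640). Of 36 genes of T cell receptor signalling and T cell identity 1 had one, Plcg1, the phospholipase downstream of the receptor, at 0.76 (q = 0.000351). Of 27 genes of other helper and regulatory T cells 1 had one, Il12rb2, a receptor chain of the Th1 branch, at 0.82 (q = 0.00409). The 38 signalling and activation genes and the 19 myeloid and B cell genes had none.

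Lists of other tissues were small as well. Of 21 neuronal and liver genes 2 had elements (9.52%), all lower: Grin1, a glutamate receptor subunit, with -1.29 and -0.91, and Apoa1, the main protein of high-density lipoprotein, with -1.02. F9, the gene of the liver named above, is outside this list, and its element was higher, at 3.73. Of 32 large cytoskeletal and matrix genes 2 had elements (6.25%). Hspg2, the basement membrane proteoglycan perlecan, had 1.38 and Celsr2, a cadherin receptor, had -0.94.

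Gene families with GC-rich exons were on the lower side. All 9 elements in homeobox genes were lower, with a median of -1.74, from Tlx3 at -2.70 to Lhx6 at -1.16, and their GC content ranged from 57.4 to 73.1%. Evx1, Evx2 and Lmx1a also encode homeodomain proteins but fall outside the symbols that defined this list, and their elements were lower too. All 9 elements in ion channel genes picked by symbol were lower, with a median of -1.39 and GC contents of 56.8 to 69.8%. They ranged from the potassium channel gene Kcns1 at -1.94 to the cardiac potassium channel gene Kcnh2 at -0.70. The glutamate receptor channel genes Grin1, Grin2c and Grik5 fall outside these symbols, and their elements were lower too. Among all 443 elements 337 were lower, so a count of 9 in 9 is a description of these genes only.

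Zinc finger and motor genes were less uniform. Of 12 elements in C2H2 zinc finger genes picked by symbol 11 were lower, and the median of the 12 was -2.01. Prdm8, a transcriptional repressor, was lowest at -3.10, and 1 element was higher, Zfp605 at 1.81 (q = 0.00775). The lower ones include Zfp472 at -2.39, whose GC content of 36.5% is far from the median of 69.8% of this group. Sp5, Scrt1, Insm1, Maz and Mzf1 are among the C2H2 zinc finger genes outside these symbols, and their elements were lower too. Of 8 elements in dynein, myosin and kinesin genes 5 were lower, with Kif26b at -1.96 as the lowest, and 3 were higher, Myo3b at 2.03, Myo15b at 1.26 and Kif21b at 1.04. A collagen gene, Col7a1, had 2.52, an olfactory receptor gene, Olfr763, had 2.19 in an element with a second copy, and a semaphorin gene, Sema4a, had -1.16. The 2 elements in solute carrier genes were at 0.63 (Slc6a19) and -1.48 (Slc44a5), and protocadherin and keratin genes had none.

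**Figure D5:**
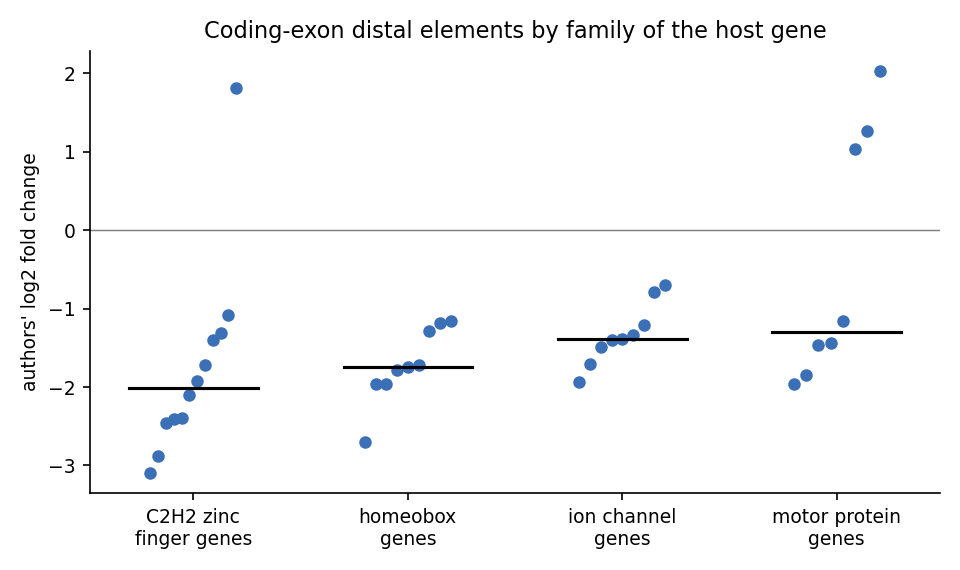
Each point is the log2 fold change in the authors' deposited table (vertical axis) of 1 coding-exon distal element. Its host gene belongs, by its symbol, to the family named on the horizontal axis. Points are spread sideways by rank, and the black line is the median. All 9 homeobox and 9 ion channel elements lie below 0, as do 11 of 12 zinc finger and 5 of 8 motor protein elements.

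Most genes with several coding-exon elements had elements of 1 direction, for the most part lower. Among all 443 elements 337 were lower, so these counts are a description, and a part of the gene was not tested. In 18 genes with more than 1 coding-exon element, 37 elements in all, 14 genes had only lower elements, between -3.10 (Prdm8) and -0.56 (Espn), 3 had only higher ones (Crybg1, Lyst and Lrrc6) and 1 had both. Trim71, a ubiquitin ligase gene of stem cells, had the most, 3 lower elements in its first coding exon at -2.10, -1.85 and -1.51, which lie within 1 kb of each other and are not independent. The other genes with 2 lower elements were Bhlhe41, Evx1, Foxf2, Gpr160, Grin1, Hid1, Insm1, Kif19a, Nkpd1, Siglec15 and Skor1. Gaps of under 1 kb also separate the pairs in Bhlhe41, Crybg1, Evx1, Foxf2, Gpr160, Insm1, Nkpd1, Prdm8 and Siglec15, which are not independent either. The 2 elements of Lrrc6, a gene of cilia, were at 2.31 and 1.89 in coding exons 7 and 5, and both held IRF matches.

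Myo15b was the gene with both directions, and its elements differed in sequence. The element in its first coding exon was coding throughout, had 70.1% GC and a value of -1.46 (q = 6.02e-07). The element at coding exon 15 was 26.5% coding, had 54.9% GC, an AP-1 and a STAT match, and a value of 1.26 (q = 4.79e-06).

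Some elements went against their GC content, and they were picked out after their values were seen. At 60% GC or more 5 elements were higher, in Adamtsl5 (0.72), 1700008O03Rik (1.07), Tchh (1.27), Med25 (1.28) and B430305J03Rik (1.78). Those in Adamtsl5, a gene of the microfibril-associated ADAMTS-like proteins, and in Med25, a Mediator subunit gene, hold an AP-1 match. Under 45% GC 6 elements were lower, in Gpr160 (-2.42), Zfp472 (-2.39), Npat (-2.05), Nol10 (-1.87), Tdrd3 (-1.30) and Rfc4 (-1.09). Of these 6 only that in Npat holds AP-1 matches.

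For 201 of the 443 elements the promoter of the host gene was listed in the table as well. Both were lower in 127 cases and both higher in 14. The exon element was higher and the promoter lower in 49 cases, and the reverse held in 11. Under 58% GC the 4 counts were 25, 13, 45 and 4. Promoter-proximal elements as a whole were mostly lower, 8247 of 9508 in the table, so these counts are a description, and a link between exon and promoter was not tested.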

How the data were processed

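STARR-seq values of 4 replicates came from 1 table on mm10. Per the file headers the authors made the deposited table from the pooled alignments. It gives each element's deposited log2 fold change, length, p-value and q-value. The choice of aligner and element caller was not given in the sources used here. All 24232 q-values equal the Benjamini-Hochberg adjustment of the deposited p-values over 114722 tests within a tolerance of 1e-06, which gives the number tested. The 15 elements on other contigs were left out.

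Elements were placed by their centre on GENCODE M21 and the mm10 genome sequence (Python 3.11.15, pandas 2.3.3, SciPy 1.17.1). GC, CpG ratio and matches to 19 motifs on both strands came from the sequence; NF-kB, CTCF, NRF1 and YY1 used degenerate consensus letters. The shares of motif holders among other distal elements were weighted to the lengths of the coding-exon elements. Near-identical copies were alignments with minimap2 2.31-r1302 (k of 19, w of 10) at 95% identity over 90% of the length: 433 elements lie at 1 place, 3 have a copy and 7 of at most 50 bp were not placed. Gene families were taken from symbol patterns. The GC weighting was tested on simulated data.

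The members, lists and motifs were chosen with earlier results of these data known. The text names the 8 highest and 8 lowest elements at 1 place, the genes with most elements (Trim71 and those tied after it), the elements of listed genes, the highest and lowest of each family and, for 6 motifs, the 2 holders with the smallest p. Exceptions are said to be chosen after their values were seen. Shares carry exact Clopper-Pearson 95% intervals, and there is no test over replicates, since no per-replicate value was used. The alternatives were a stricter q-value or fold change, other distance and coding limits, single-place elements, 1 element per gene and other strata.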

Additional observations from a re-analysis of the deposited data

How the results depend on the processing

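Of 41 values under alternative settings 28 moved by less than their counting interval, 13 moved further and none changed sign. The share of higher elements was 30.0% at a q-value under 0.001, 37.9% beyond 5 kb from every coding TSS and 16.6% where at least 50% of the element was coding. The median log2 fold change was -1.40 at an absolute value of at least 1, -1.11 beyond 5 kb and -1.40 at 50% coding. The GC-weighted gap of -14.3 points became -18.9 at a q-value under 0.001, -19.3 with 1 element per gene, -47.0 with length deciles and, in settings added after seeing the data, -9.09 with GC bins of 2 points and -27.5 with deciles of the CpG ratio. The AP-1 gap of 64.9 points became 21.6 within GC terciles. The CTCF gap of -17.2 points, whose counting interval reaches 0.662, became -29.2 beyond 5 kb, with 10 holders and an interval of -41.0 to 5.91. The causes were not tested. No paired analysis was possible because the table pools the 4 replicates, and for the same reason no replicate could be left out. The depth per replicate is unknown, elements that did not pass the authors' threshold are not used here, and at low GC the classes under 10 elements (9 of 19 motifs, first and single exons) have wide intervals.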

Other observations

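Distal coding exons were listed more densely than other distal sequence, and the excess lay on the lower side. Per Mb of distal coding sequence (29.4 Mb in all, 51.1% GC) there were 3.61 higher and 11.5 lower elements. Distal introns (909 Mb, 42.3% GC) had 5.33 higher and 1.93 lower elements per Mb, untranslated regions 5.21 and 2.85, and intergenic sequence 3.46 and 1.13. The density of higher elements in coding exons was thus between those of intergenic and intronic sequence, while that of lower elements was above all 3 other classes. How many elements of each class the authors tested is not known from the table, and the part of GC in these densities was not tested.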
